A study of Mus musculus with 6 samples.

Results

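The 10 genes described here encode regulators of ubiquitin signaling around NF-κB, and the cytokine Il10, in hematopoietic stem and progenitor cells (HSPCs). They are Tnfaip3, Cyld, Cblb, Itch, Tab1, Traf6, Irak1 and Il10, which the study names as targets of the MIRC11 miRNAs or of miR-146a, and Tnip1 and Optn, a pair of ubiquitin-binding proteins of the same pathway. The genes were picked by name from the 23997 symbols of the deposited table, and all 10 were among the 15662 that averaged at least 1 normalized count and entered the fit. RNA-seq was performed on Lin-Sca-1+c-Kit+ (LSK) cells sorted from bone marrow, the fraction that holds stem cells and multipotent progenitors. There were 3 libraries from Mirc11-/- mice, which lack the miRNA cluster that codes for miR-23a, miR-27a and miR-24-2, and 3 from wildtype mice. The mice were on the C57BL/6 background by the labels (the mutants on C57BL/6J by the study's methods) and aged 6 to 8 weeks, under normal hematopoiesis with no agent given, and each library held RNA of cells pooled from 3 to 4 mice. The sex of the mice is not given in the sources used here. Values are normalized counts: reads assigned to the gene, scaled by 1 size factor per library that lies near 1.

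Signals from Toll-like, IL-1 and TNF receptors reach NF-κB through ubiquitin chains. Chains linked through lysine 63 of ubiquitin on TRAF6 and its partners gather the TAK1 and IKK kinase complexes, whereas other chains send proteins to the proteasome. Deubiquitinases such as A20 (Tnfaip3) and CYLD remove activating chains, the ligases Cbl-b and Itch mark receptors and intermediates for degradation, and ABIN1 (Tnip1) and optineurin bind chains. A20 is itself transcribed in response to NF-κB, which closes a feedback loop. A miRNA pairs through its seed, bases 2 to 8 of the mature strand, with complementary bases that lie mostly in the 3′ UTR of an mRNA. By the pairings named for these genes, miR-23a goes with A20, miR-27a with Cbl-b, Itch, Tab1 and Il10, and miR-146a with Traf6 and Irak1.

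The mature miRNAs are shown because their seeds define the matches counted in each gene, with the seed in capitals (5′ to 3′, from RefSeq, GRCm38.p6). MiR-23a, miR-27a and miR-24 stand together on the plus strand of chromosome 8, and miR-146a on the minus strand of chromosome 11.
miR-23a-3p (chr8:84208563-84208583): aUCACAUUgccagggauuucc
miR-27a-3p (chr8:84208727-84208747): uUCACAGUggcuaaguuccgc
miR-27b-3p (chr13:63300760-63300780): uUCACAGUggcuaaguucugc
miR-24-3p (chr8:84208875-84208896): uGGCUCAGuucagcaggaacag
miR-146a-5p (chr11:43374435-43374456): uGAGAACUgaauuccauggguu
MiR-27b, from the paralog cluster that the Mirc11-/- mice keep, has the same seed as miR-27a. The table gives the same mature miR-24-3p for Mir24-2 of the deleted cluster and for Mir24-1 of the paralog cluster. Mature miRNAs were not measured here.

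The precursor entries checked the genotype labels. Mir23a had 0 reads in all 3 Mirc11-/- libraries, against 15.78, 15.88 and 19.25 normalized counts in the wildtype libraries. Over the group this was 0 against 51 reads, at least 17-fold lower with a floor of 3 reads over the group. Mir27a (0 against 54 reads) and Mir24-2 (0 against 73 reads) were at least 18.1-fold and at least 24.5-fold lower. The adjusted p of Mir23a was 0.0288 by limma, 0.313 by edgeR and 0.000935 by DESeq2. Those of Mir27a and Mir24-2 were 0.0832 and 0.185 by limma, 0.337 and 0.424 by edgeR, and 0.00121 and 0.000572 by DESeq2. The paralog entries Mir23b, Mir27b and Mir24-1 held 3, 2 and 3 reads in Mirc11-/- cells against 1, 4 and 3 reads in wildtype cells, and Mir146 held 1 read against 0, which is at or about the floor. The libraries were poly(A) selected, so these reads come from the primary transcripts.

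Seed matches were searched on the transcript strand, in the longest 3′ UTR annotated for a gene (GENCODE M21, GRCm38). A match was AATGTGA or ATGTGAA for miR-23a, ACTGTGA or CTGTGAA for miR-27a, CTGAGCC or TGAGCCA for miR-24 and AGTTCTC or GTTCTCA for miR-146a. An 8-nucleotide match joins both forms, as in AATGTGAA, ACTGTGAA, CTGAGCCA and AGTTCTCA. Of the 10 genes, 9 held at least 1 match to a MIRC11 miRNA, beside 52.2% of the 13557 tested genes with an annotated 3′ UTR. MiR-23a matches stood in 4 of the 10 genes (23.7% of all genes), miR-27a matches in 7 (28% of all genes), miR-24 matches in 4 (25.6%) and miR-146a matches in 4 (19.9%). Matches of 8 nucleotides were fewer, with 3 genes for miR-23a, 0 for miR-27a, 1 for miR-24 and 2 for miR-146a, against 6.87%, 6.08%, 8.52% and 4.4% of all genes. Of the 10 genes, 7 have 3′ UTRs of over 1111 bases, the median over all genes, and a longer UTR holds a given motif more often. A match is a stretch of letters and no measured binding site.

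Of the 26 matches found, a selection is shown: matches of named pairings, the miR-27a matches of Tnfaip3 and Optn, the genes with the smallest p among the 10, and the 8-nucleotide miR-23a matches of Cblb and Irak1. Matched bases are in capitals (30 bases each, from the 3′ UTR, 5′ to 3′ on the transcript strand).
Tnfaip3, miR-23a (chr10:19001046-19001075, minus strand): ttttcattgttAATGTGAAatggttattta
Tnfaip3, miR-27a (chr10:19002654-19002683, minus strand): ttcacagtggtACTGTGAtccagacccctg
Cblb, miR-23a (chr16:52207607-52207636, plus strand): gagctcttcatAATGTGAActtcctaattg
Cblb, miR-27a (chr16:52204943-52204972, plus strand): gaactttgaatCTGTGAAatgcttttcctt
Itch, miR-27a (chr2:155224550-155224579, plus strand): tgtaaacttggACTGTGActagagagttac
Itch, miR-27a (chr2:155225603-155225632, plus strand): cttagcattagACTGTGAggatggttgctg
Il10, miR-27a (chr1:131024438-131024467, plus strand): actgagcttctCTGTGAActatttagaaag
Optn, miR-27a (chr2:5021109-5021138, minus strand): tcatgagagtcACTGTGAgcagtcagccag
Traf6, miR-146a (chr2:101697948-101697977, plus strand): ctctggtgttgAGTTCTCAtttagttgact
Irak1, miR-146a (chrX:74015382-74015411, minus strand): tcagaggtcaaAGTTCTCAtgcttggaagt
Irak1, miR-23a (chrX:74015267-74015296, minus strand): gctgttctcagAATGTGAAcacagacaggg
The Tnfaip3 match to miR-23a had 8 nucleotides and lay 1667 bases after the stop codon in a 3′ UTR of 1821 bases, and 28.1% of genes with a 3′ UTR of like length (the shorter at least 0.8 of the longer) held a miR-23a match. Cblb held an 8-nucleotide miR-23a match and a 7-nucleotide miR-27a match in 3356 bases. At this length 48.8% and 53.5% of genes hold a match of either 7 or 8 nucleotides to miR-23a and miR-27a. Itch was the only one of the 10 with more than 1 miR-27a match, at 95 and 1148 bases after the stop codon, and 43.6% of genes of like UTR length held at least 1. Il10 held 1 miR-27a match of 7 nucleotides, at 181 bases after the stop codon in 706 bases (16.8% of genes of like length). Tab1 held no miR-27a match in its 1426 bases and 1 miR-24 match. Traf6 held 4 miR-146a matches, all of 8 nucleotides, in 4170 bases, where 49.9% of genes of like length hold at least 1 of either 7 or 8 nucleotides. Irak1 held 3 miR-146a matches within the first part of its 3′ UTR, at 40, 56 and 147 bases after the stop codon, and the last of these lay beside its 8-nucleotide miR-23a match at 155 bases. Optn held 1 miR-27a match in 709 bases (16.9% of genes of like length), and Tnip1 held none for any of these miRNAs in 752 bases.

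**Figure D1:**
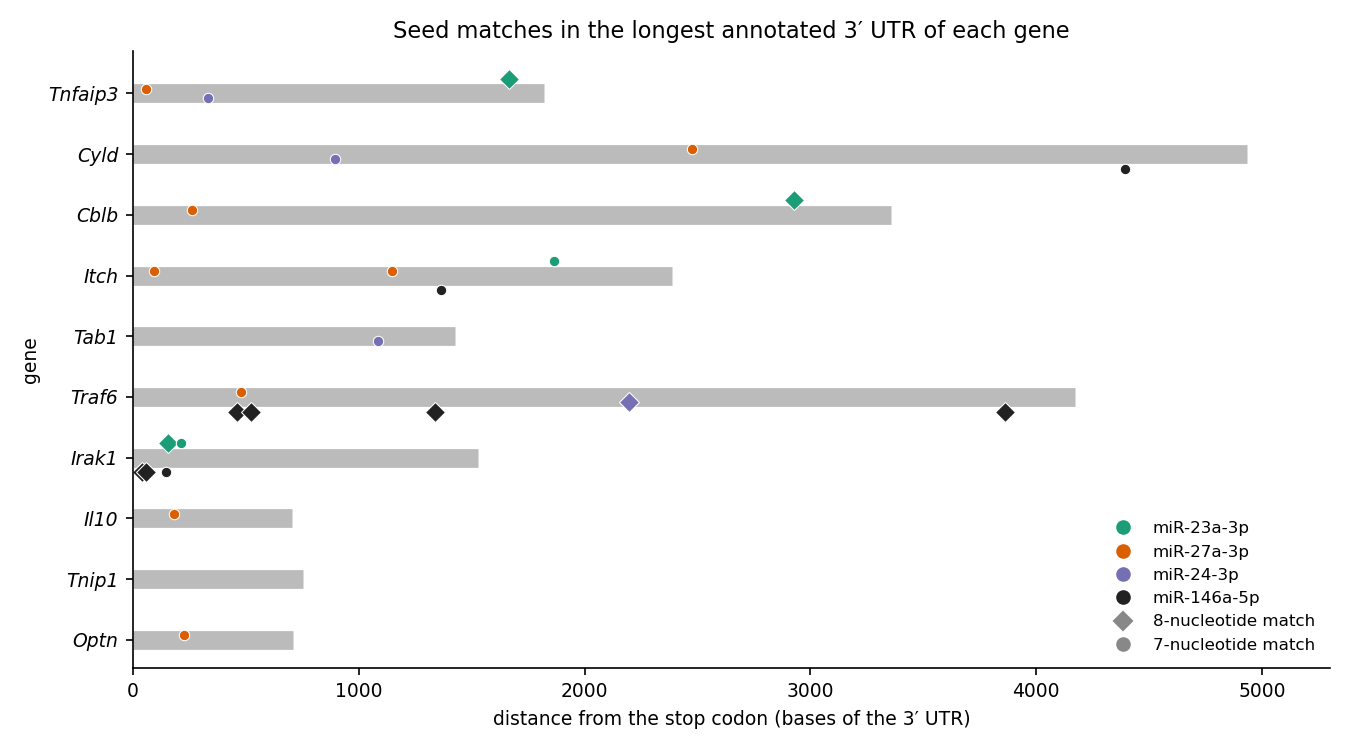
Positions of seed matches along the longest annotated 3′ UTR of the 10 genes; the x axis is the distance from the stop codon in bases, gray bars are the UTRs, colors are the miRNAs, diamonds are matches of 8 and circles of 7 nucleotides. Of the 26 matches, 17 are to MIRC11 miRNAs, Traf6 carries 4 miR-146a diamonds and Tnip1 carries no match.

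The libraries held 15029379 to 17051541 reads in genes for Mirc11-/- and 15772826 to 16250826 for wildtype. On the first principal component (31.3% of the variance) the Mirc11-/- libraries lay at 54.6, 25.5 and -19.5 and the wildtype libraries between -26.2 and -13.5, so that Mirc11-/- library 3 stood with the wildtype libraries and apart from libraries 1 and 2. The markers of the sorted cells were present, with Kit at 6644 to 9950 and Ly6a, which encodes Sca-1, at 373.6 to 683 normalized counts over the 6 libraries, and all 10 HSPC markers examined were detected. They summed to 25400, 32770 and 45230 in Mirc11-/- libraries 1 to 3, against 38370, 38590 and 45620 in wildtype libraries. Of these markers, 3 had a positive and 7 a negative log2 fold change, and 0 passed by limma. An unadjusted limma p under 0.05 was obtained for 2, Cd34 and Flt3, both lower, beside 4.09% of all genes. Erythroid markers summed to 22480 to 53030 in Mirc11-/- libraries against 21410 to 30290 in wildtype libraries. Neutrophil markers summed to 139000 to 221900 against 160500 to 193900, and most of each sum was Mpo (151700 in Mirc11-/- library 1). Of these 10 markers, 6 had a positive and 4 a negative log2 fold change, and 0 passed by limma. Ltf, Lcn2 and Mmp8, 3 of the 10, were higher with an unadjusted limma p under 0.05, beside 4.15% of all genes. Monocyte markers summed to 6839 to 13050 against 8319 to 10590, and the largest part of each sum was Ly6c2 (7693 in Mirc11-/- library 1). Of 7 tested, 3 had a positive and 4 a negative log2 fold change, and 0 passed by limma. Cd68 and Itgam, 2 of the 7, were lower with an unadjusted limma p under 0.05, beside 4.09% of all genes. Their libraries did not overlap between the genotypes, beside 6.53% of all genes in that direction. B cell markers summed to 454 to 745.6 against 525.9 to 576.9, and most of each sum was Cd79b (363.2 in Mirc11-/- library 1). T and NK cell markers summed to 1193 to 2877 against 2477 to 2729, almost all of it Nkg7 (2833 in Mirc11-/- library 1). Cd3e stood at 0 to 2.012 normalized counts in Mirc11-/- and 0 in wildtype libraries. Among 8 B cell markers, 7 had a positive log2 fold change and 1 a negative (median 0.8), and 0 passed by limma. Their median log2 level, with the wildtype average set to 0, was highest in Mirc11-/- libraries 2 and 3 (1.48 and 1.36). It was -0.31 in Mirc11-/- library 1 and 0 to 0.1 in wildtype libraries. In sorted cells measured in bulk, fewer cells of a type and less RNA per cell cannot be told apart.

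None of the 10 genes passed the threshold of an adjusted p under 0.05 by limma, edgeR or DESeq2. Over all genes limma called 5 of 15662 (0.0319%), edgeR 4 of 15662 (0.0255%) and DESeq2 122 of 14750 (0.827%). An unadjusted p under 0.05 was obtained for 2 of the 10 by each of the 3 tools, Tnfaip3 and Optn, beside 8.24% of all genes by limma. The log2 fold change was negative for 7 and positive for 3 of the 10, with a median of -0.126, against 0.00246 over all genes tested. Only Itch had libraries that did not overlap between the genotypes, beside 12.9% of all genes. These values measure the spread between pools of mice, and an exact permutation test of 3 against 3 libraries cannot go below p = 0.1.

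**Figure D2:**
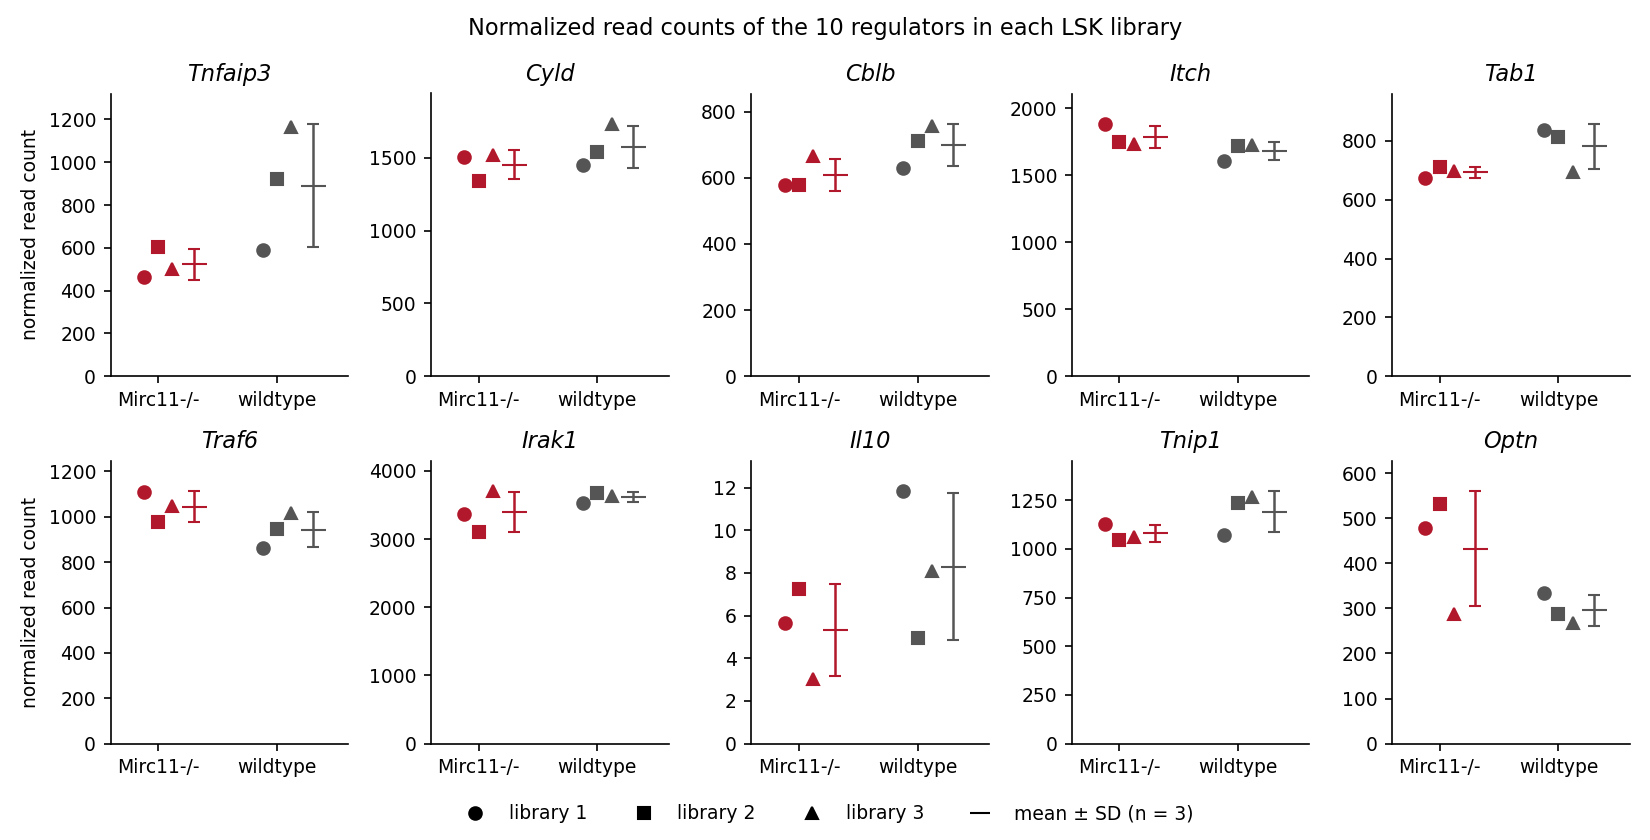
Normalized read counts of the 10 genes in each LSK library, 1 panel per gene with its own y axis from 0; red is Mirc11-/-, gray is wildtype, symbols are libraries 1 to 3 and bars are the mean ± SD (n = 3). Tnfaip3 is lowest in Mirc11-/- library 1 (464.4) and highest in wildtype library 3 (1163), and the counts of Optn in Mirc11-/- libraries 1 and 2 (477.6 and 530.7) lie above all others.

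Both deubiquitinases had lower means in Mirc11-/- cells, with libraries that overlapped. Tnfaip3 encodes A20, which takes activating chains off TRAF6 and RIPK1 and shuts down NF-κB (GRCm38 chr10:19000910-19015657, minus strand). It had 464.4, 603.4 and 499.1 normalized counts in Mirc11-/- libraries 1 to 3, against 587.7, 921 and 1163 in wildtype libraries 1 to 3. The groups overlapped, because wildtype library 1 lay under Mirc11-/- library 2, and the wildtype libraries spread more than the Mirc11-/- libraries. The mean was 522.3 ± 72.34 in Mirc11-/- and 890.7 ± 288.9 in wildtype cells (SD, n = 3 each). This is a log2 fold change of -0.72 (SE 0.22, 95% interval -1.23 to -0.21, unadjusted p = 0.0109). The adjusted p was 0.479 by limma, 0.43 by edgeR and 0.0714 by DESeq2, so that the lower mean did not pass over all genes. Leaving out single libraries gave log2 fold changes of -0.99 to -0.50.

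Cyld encodes the deubiquitinase CYLD, which cleaves lysine 63-linked and linear chains (chr8:88697028-88751945, plus strand). It had 1507, 1339 and 1517 normalized counts in Mirc11-/- libraries, against 1452, 1541 and 1735 in wildtype libraries. The groups overlapped, and the log2 fold change was -0.11 (SE 0.10, 95% interval -0.33 to 0.10, limma adjusted p = 0.758). Cyld lies 4.49 Mb from the deleted cluster on the same chromosome, and what sequence the Mirc11-/- mice carry around the deletion was not tested.

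The ligases named as miR-27a targets differed in sign. Cblb encodes Cbl-b, a RING ligase that restrains receptor and TLR signaling (chr16:52031225-52208048, plus strand). It had 579.7, 579.5 and 665.1 normalized counts in Mirc11-/- libraries, against 630.1, 710.6 and 756.9 in wildtype libraries. Mirc11-/- library 3 lay above wildtype library 1, and the log2 fold change was -0.20 (SE 0.11, 95% interval -0.45 to 0.05, limma adjusted p = 0.637). Itch encodes a HECT ligase of the Nedd4 family that works with A20 (chr2:155133509-155226855, plus strand). It had 1883, 1745 and 1734 normalized counts in Mirc11-/- libraries, against 1604, 1716 and 1723 in wildtype libraries. All Mirc11-/- libraries lay above all wildtype libraries, although Mirc11-/- library 3 and wildtype library 3 were close, and 6.42% of all genes had such a pattern in that direction. Its log2 fold change was 0.09 (SE 0.08, 95% interval -0.09 to 0.26, limma adjusted p = 0.771).

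Traf6, Irak1 and Tab1 encode the intermediates on which the chains are built or read. Traf6 encodes the ligase that builds lysine 63-linked chains after IL-1 and Toll-like receptor signaling (chr2:101678429-101701669, plus strand). It had 1111, 976.2 and 1046 normalized counts in Mirc11-/- libraries, against 863.9, 947.8 and 1019 in wildtype libraries. Wildtype library 3 lay above Mirc11-/- library 2, and the log2 fold change was 0.15 (SE 0.10, 95% interval -0.07 to 0.37, limma adjusted p = 0.684). Irak1 encodes the kinase that links MyD88 to TRAF6 (chrX:74013914-74023918, minus strand). It had 3374, 3108 and 3702 normalized counts in Mirc11-/- libraries, against 3532, 3680 and 3635 in wildtype libraries. The Mirc11-/- libraries held both its lowest and its highest value, and the log2 fold change was -0.09 (SE 0.08, 95% interval -0.28 to 0.09, limma adjusted p = 0.771). The genes Mir5132 and Mir718 overlap 71 and 70 bases of Irak1 exons on the same strand, 1.51% and 1.48% of its merged exon length. Tab1 encodes a TAK1-binding subunit (chr15:80133127-80161707, plus strand). It had 672.4, 710.3 and 697.3 normalized counts in Mirc11-/- libraries, against 836.3, 813.8 and 693.1 in wildtype libraries. Wildtype libraries 1 and 2 stood above the other 4 libraries, and the log2 fold change was -0.17 (SE 0.10, 95% interval -0.40 to 0.06, limma adjusted p = 0.66).

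Il10 encodes an anti-inflammatory cytokine made by activated myeloid and lymphoid cells (chr1:131019845-131024974, plus strand). It had 5.674, 7.269 and 3.019 normalized counts in Mirc11-/- libraries, against 11.83, 4.962 and 8.106 in wildtype libraries, from 16 reads against 25 reads in all. The groups overlapped, and the log2 fold change of -0.55 (SE 0.49, limma adjusted p = 0.774) had a 95% interval of -1.66 to 0.56, the widest of the 10.

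The ubiquitin-binding proteins Tnip1 and Optn differed in sign as well. Tnip1 encodes ABIN1, which carries A20 to its substrates (chr11:54910785-54962917, minus strand). It had 1130, 1046 and 1061 normalized counts in Mirc11-/- libraries, against 1069, 1238 and 1264 in wildtype libraries. Wildtype library 1 lay between Mirc11-/- libraries, and the log2 fold change was -0.14 (SE 0.09, 95% interval -0.35 to 0.07, limma adjusted p = 0.691). Optn encodes optineurin, an autophagy receptor that binds ubiquitin chains and the kinase TBK1 (chr2:5020642-5064051, minus strand). It had 477.6, 530.7 and 287.8 normalized counts in Mirc11-/- libraries, against 333.3, 286.8 and 266.5 in wildtype libraries. Mirc11-/- libraries 1 and 2 stood above the other 4 libraries, and Mirc11-/- library 3 lay within the wildtype range. The mean was 432 ± 127.7 in Mirc11-/- and 295.5 ± 34.26 in wildtype cells (SD, n = 3 each). This is a log2 fold change of 0.50 (SE 0.22, 95% interval 0.01 to 1.00, unadjusted p = 0.0477, limma adjusted p = 0.597). Without Mirc11-/- library 3 it was 0.77 with a limma adjusted p of 0.0204, in a fit that called 3.4% of 15633 genes, 1.94% as higher, and without Mirc11-/- library 2 it was 0.33. The antisense gene 4930551O13Rik overlaps 73 bases (1.95%) of its exons. Whether the counting used strand is not given in the sources used here.

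**Figure D3:**
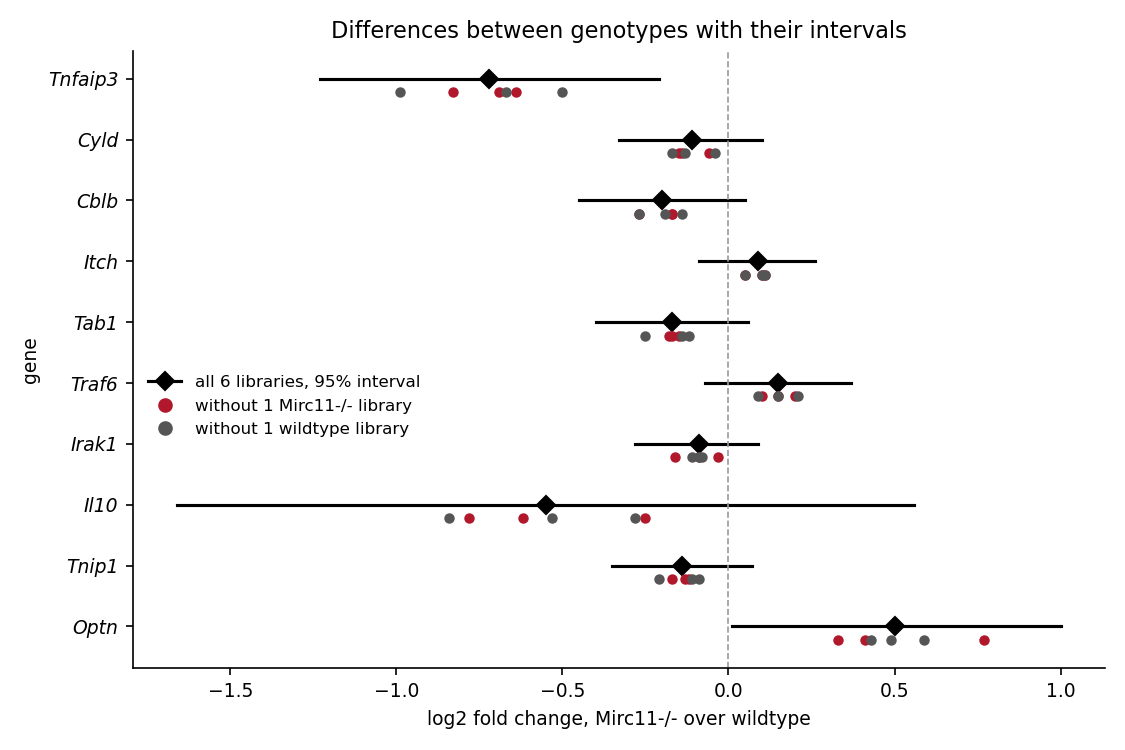
Log2 fold change of Mirc11-/- over wildtype for the 10 genes; diamonds and lines are the value and 95% interval from all 6 libraries, red points leave out 1 Mirc11-/- library and gray points leave out 1 wildtype library. The intervals of Tnfaip3 (-1.23 to -0.21) and Optn (0.01 to 1.00) do not reach 0, those of the other 8 do, and no point crosses 0.

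The genes stood at levels that spanned a wide range once divided by the length of their merged exons. Irak1 had the highest level per kb, 743.3 normalized counts per kb as the mean of the 6 libraries (659.1 to 785). It was followed by Tnip1 at 320.6 (295.5 to 357.1), Tab1 at 219.4 (200.1 to 248.9) and Itch at 178.6 (165.3 to 193.9) per kb. The ranges of these 4 genes did not overlap on this length, but with the length of the longest transcript the order of Tab1 and Itch was reversed (248.7 for Tab1 and 326.6 for Itch per kb). Traf6 (126.1), Cyld (120.5), Tnfaip3 (97.77) and Optn (96.93) per kb formed a group whose ranges over the libraries overlapped and whose order is not resolved. Cblb stood at 62.4 per kb (55.32 to 72.26), its range touching those of Tnfaip3 and Optn, and Il10 at 5.199 per kb (2.304 to 9.034) was the lowest by far. Within a genotype the coefficient of variation of the 10 genes other than Il10 was between 2.09% and 32.4%, and the highest was that of Tnfaip3 in wildtype cells.

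Tnfaip3 moved across the libraries with the median of a mixed list of immediate-early and NF-κB response genes. Relative to the wildtype mean, its log2 level was -0.88, -0.51 and -0.78 in Mirc11-/- libraries 1 to 3, against -0.54, 0.10 and 0.44 in wildtype libraries 1 to 3. The median of 28 immediate-early and NF-κB response genes was -1.09, -0.55 and -0.65 in the same Mirc11-/- libraries, against -0.27, -0.03 and 0.33 in the wildtype libraries. In both, Mirc11-/- library 1 was lowest and wildtype library 3 highest. Of the 28 genes, 27 had lower means in Mirc11-/- cells (median log2 fold change over the list -0.76) and 0 passed by limma. DESeq2 called 13 of them lower, beside 0.576% of all genes, and limma without Mirc11-/- library 3 called 11 lower, beside 1.46% of all genes in that fit. An unadjusted limma p under 0.05 in that direction was obtained for 18, beside 4.09% of all genes. The list was chosen with earlier results of these data known, so these counts describe the listed genes and are no test of the list. Their smallest p belonged to Fos (log2 fold change -1.13, SE 0.18, limma adjusted p = 0.258) and Ier2 (-0.81, SE 0.15, limma adjusted p = 0.322). The list was not uniform. Log2 fold changes of Icam1 (0.01), Nfkbie (-0.09), Birc3 (-0.17), Nfkb1 (-0.18), Relb (-0.19) and Nfkb2 (-0.29) lay nearer 0. Those of Nfkbia (-0.55), Tnf (-0.71) and Nfkbiz (-1.14) were lower. The part of this wider difference in that of Tnfaip3 was not tested.

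The 5 genes whose pattern over the 6 libraries was most like that of Tnfaip3, among 11402 genes averaging at least 50 normalized counts, were Ccl4, Zc3h12a, Cd69, Zfp622 and Plk3, with Pearson correlations of 0.9848, 0.9828, 0.9824, 0.9818 and 0.981. These are descriptions over 6 libraries that share the genotype split, and 88 genes exceeded 0.9. Ccl4, a chemokine, had 298.9, 419.6 and 394.4 normalized counts in Mirc11-/- libraries, against 496, 809.8 and 1126 in wildtype libraries. Zc3h12a, which encodes the ribonuclease Regnase-1 that degrades inflammatory mRNAs, had 229.8, 327.1 and 295.8 in Mirc11-/- libraries, against 320.5, 459.5 and 635.3 in wildtype libraries. In both, wildtype library 3 was highest and Mirc11-/- library 1 lowest, as in Tnfaip3. Cd69, Zfp622 and Plk3 were also highest in wildtype library 3 but lowest in Mirc11-/- library 3 (965, 1087 and 192.2 normalized counts). They had 1005, 1099 and 230.8 in Mirc11-/- library 1.

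Optn moved across the libraries with the erythroid markers. On the same scale Optn had log2 levels of 0.70, 0.85 and -0.03 in Mirc11-/- libraries 1 to 3, against 0.18, -0.04 and -0.14 in wildtype libraries. The median of 14 erythroid markers was 1.37, 1.25 and -0.15 in these Mirc11-/- libraries, against 0.46, -0.11 and -0.33 in the wildtype libraries. Libraries 1 and 2 of Mirc11-/- were highest and wildtype library 1 next in both. All 14 erythroid markers had a positive log2 fold change and none was at 0 throughout, 0 of 14 passed by limma with all libraries, and 13 passed as higher without Mirc11-/- library 3, beside 1.94% of all genes in that fit. The part of the erythroid markers in the values of Optn was not tested. The genes most like Optn in pattern were Ugcg, Eps8l3, Spire1, D330041H03Rik and Acss1, with Pearson correlations of 0.9974, 0.9965, 0.9961, 0.9934 and 0.9931 over the 6 libraries, and 599 genes exceeded 0.9. Ugcg, which encodes glucosylceramide synthase, had 1835, 1892 and 1397 normalized counts in Mirc11-/- libraries, against 1503, 1424 and 1352 in wildtype libraries.

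**Figure D4:**
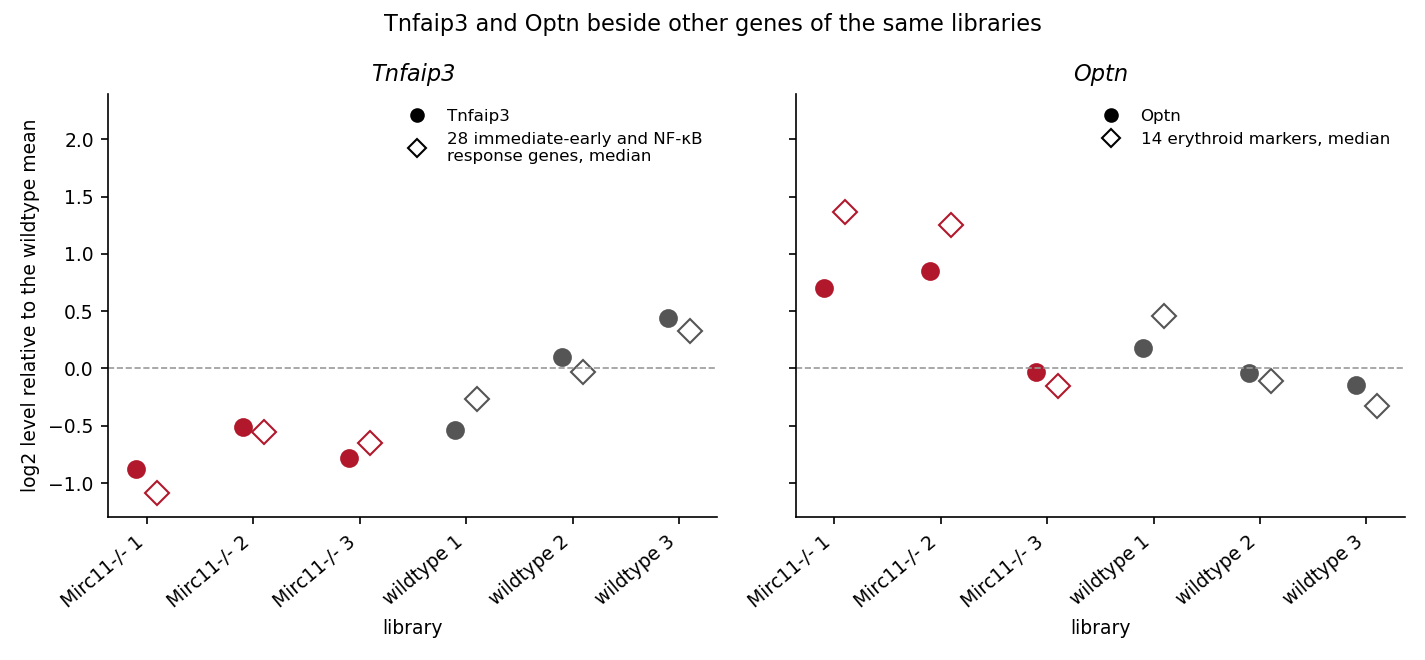
Log2 level relative to the wildtype mean in each of the 6 libraries (x axis, Mirc11-/- in red and wildtype in gray) for Tnfaip3 with the median of 28 immediate-early and NF-κB response genes, and for Optn with the median of 14 erythroid markers; filled circles are the named gene and open diamonds the median. Tnfaip3 and its companions are lowest in Mirc11-/- library 1 (-0.88 and -1.09), and Optn and the erythroid markers are highest in Mirc11-/- libraries 1 and 2 (0.70 and 0.85 for Optn).

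Among the 10 genes themselves the pattern over the 6 libraries was shared by some and not by all. Tnfaip3, Cyld, Cblb and Tnip1 had Pearson correlations of 0.66 to 0.84 with one another, and Irak1 ran with Cblb (0.80). Optn ran opposite to Irak1 (-0.94) and Cblb (-0.92), and Traf6 ran with Itch (0.91) and opposite to Tab1 (-0.91). These are descriptions over 6 libraries, which share the genotype split and the pools of cells.

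Partners of the 10 genes were read from the same fit, in lists compiled from general knowledge. Of 9 A20 and CYLD partners, 2 had a positive and 7 a negative log2 fold change (median -0.10), and 0 passed by limma. Sharpin, a subunit of the linear chain ligase LUBAC, had 944.8, 954.4 and 942.8 normalized counts in Mirc11-/- libraries, against 1103, 1036 and 1072 in wildtype libraries (log2 fold change -0.18, SE 0.08, limma adjusted p = 0.6). Tax1bp1, an adaptor of A20, had a log2 fold change of -0.15 (SE 0.07, limma adjusted p = 0.63). All Mirc11-/- libraries lay under all wildtype libraries for both, as for 6.53% of all genes. Of 14 other deubiquitinases acting on NF-κB signaling, 6 were positive and 8 negative (median -0.01), 0 passed by limma, and 1 in the higher and 2 in the lower direction had an unadjusted p under 0.05, beside 4.15% and 4.09% of all genes. Usp18, which removes the ubiquitin-like ISG15, had 165.5, 180.7 and 179.1 normalized counts in Mirc11-/- libraries, against 216, 315.6 and 319.2 in wildtype libraries. Its log2 fold change was -0.67 (SE 0.18, limma adjusted p = 0.431, DESeq2 adjusted p = 0.0575). It was the 1 gene of the 14 with all Mirc11-/- libraries under all wildtype libraries, beside 6.53% of all genes. Otub2 had 187.3, 197.3 and 126.8 in Mirc11-/- libraries, against 113.4, 86.34 and 115.5 in wildtype libraries, a log2 fold change of 0.68 (SE 0.22, limma adjusted p = 0.494). Without Mirc11-/- library 3 the value of Otub2 was 0.88 with a limma adjusted p of 0.0443, in a fit that called 1.94% of 15633 genes higher. Leaving out any other single library gave Otub2 a limma adjusted p of 0.589 to 0.999.

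Of 10 genes for Cbl and Nedd4 family ligases and Itch adaptors, Cblc was under the minimum, 4 were positive and 5 negative (median -0.02), 0 passed by limma, and 2 in the lower direction had an unadjusted p under 0.05, beside 4.09% of all genes. Wwp2, a ligase of the same family as Itch, had 1873, 1886 and 1962 normalized counts in Mirc11-/- libraries, against 2215, 2132 and 2183 in wildtype libraries (log2 fold change -0.19, SE 0.07, limma adjusted p = 0.539). Nedd4l had 476.7, 501.6 and 501.1 in Mirc11-/- libraries, against 570, 583.5 and 581.6 in wildtype libraries (log2 fold change -0.23, SE 0.09, limma adjusted p = 0.571). All Mirc11-/- libraries of both genes lay under all wildtype libraries, beside 6.53% of all genes, while Wwp1 of the same family did not overlap in the other direction, beside 6.42% of all genes. Wwp1, named after its values were seen, had 723.5, 708.3 and 682.2 in Mirc11-/- libraries, against 644, 605.4 and 647.5 in wildtype libraries (log2 fold change 0.16, SE 0.09, limma adjusted p = 0.64). The 12 genes of the TRAF6 and IRAK module had 7 positive and 5 negative log2 fold changes (median 0.04), 0 past the threshold by limma and 0 with an unadjusted p under 0.05. Irak2, a member of the IRAK family, had a log2 fold change of 0.25 (SE 0.13, limma adjusted p = 0.633), and Irak3, an inhibitor of the module, -0.15 (SE 0.09, limma adjusted p = 0.667). The 6 genes of the TAK1 and IKK complexes had 3 of each sign (median 0.02) and 0 past the threshold by limma, 0 with an unadjusted p under 0.05, with Tab3 at 0.15 (SE 0.10, limma adjusted p = 0.686) and Tab2 at -0.08 (limma adjusted p = 0.796).

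Optineurin partners and autophagy receptors, 11 genes, were likewise spread around 0, with 6 positive, 5 negative, a median log2 fold change of 0.00, 0 past the threshold by limma and 0 with an unadjusted p under 0.05. Rab8a, a GTPase bound by optineurin, had 0.15 (SE 0.08, limma adjusted p = 0.64), and Map1lc3b, which encodes an LC3 protein of autophagosomes, -0.17 (SE 0.11, limma adjusted p = 0.681). The receptor side of IL-10 was better covered by reads than Il10 itself. Of 5 genes of IL-10 receptor signaling, 2 were positive and 3 negative (median -0.07), 0 passed by limma and 1 had an unadjusted p under 0.05 in the lower direction, beside 4.09% of all genes. This was Il10ra, the ligand-binding receptor chain, with 462.5, 428.9 and 495.1 normalized counts in Mirc11-/- libraries, against 576.9, 637.1 and 705.2 in wildtype libraries. All Mirc11-/- libraries lay under all wildtype libraries, beside 6.53% of all genes (log2 fold change -0.47, SE 0.11, limma adjusted p = 0.419, DESeq2 adjusted p = 0.0657). Without Mirc11-/- library 3 the value was -0.52 with a limma adjusted p of 0.0484, in a fit that called 1.46% of 15633 genes lower. Leaving out any other single library gave Il10ra a limma adjusted p of 0.494 to 0.999. Il10rb, the shared receptor chain, had a log2 fold change of -0.18 (SE 0.11, limma adjusted p = 0.653).

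**Figure D5:**
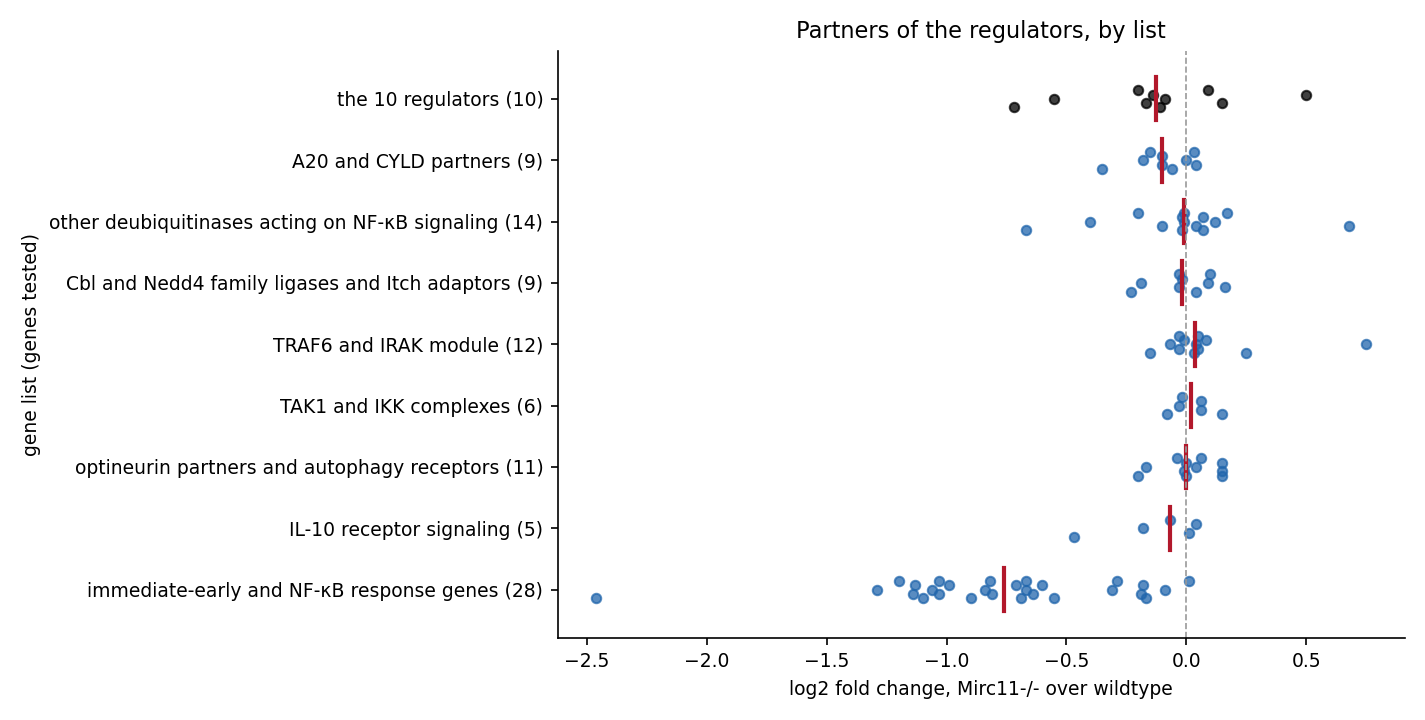
Log2 fold change of Mirc11-/- over wildtype (x axis) for the 10 genes and the genes of 8 partner lists (rows, number tested in brackets); points are genes and red bars are medians. The medians of the other 7 partner lists lie between -0.10 and 0.04, while that of the 28 immediate-early and NF-κB response genes is -0.76.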

How the data were processed

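RNA-seq of LSK cells covered 3 Mirc11-/- and 3 wildtype libraries, grouped by the genotype in the labels, all with the same batch label. Supplementary methods give alignment by STAR to hg19, FPKM by Cufflinks and testing by DE-seq. The processing notes of the submitters give mm10 for the same aligner and quantifier, and the table holds mouse symbols. Tool versions: not given in the sources used here. Although its name says FPKM, the deposited table holds a signal for each gene, reads divided by a library size factor, with no division by gene length. In each library 100% of values above 0 were whole multiples of 1 read within 0.001. The design had assumed normalized values, so limma on log2(value + 1) stayed the main test, and fold changes are on that scale, which understates the change of low genes.

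Genes with a mean of at least 1 (15662 of 23997 symbols) were fitted with limma 3.58.1 in R 4.3.3, using moderated variances with a trend on the mean, two-sided tests, Benjamini-Hochberg adjustment over all genes and a threshold of 0.05. On recovered reads, edgeR 4.0.16 (quasi-likelihood) and DESeq2 1.42.0 were alternatives. The other alternatives were a pseudocount of 0.1, no filter and a filter of 5, median-ratio scaling, no trend, the replicate number as a block, and each library left out in turn. The scripts were tested on simulated data. Depth was 15029379 to 17051541 reads in genes. The limits given as at least so many fold lower, for the miRNA entries, cover counting error only. Named were the 10 genes, the 2 genes of smallest p per list, the miRNA entries (the 3 of the deleted cluster passed the minimum) and the 5 genes most like Tnfaip3 and Optn. Members and lists were chosen with earlier results of these data known, including the list of immediate-early and NF-κB response genes.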

Additional observations from a re-analysis of the deposited data

How the results depend on the processing

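Over 14 alternative settings, 139 of 140 values of the 10 genes kept their direction and their side of the threshold, and the exception was Optn without Mirc11-/- library 3. Among the 39 genes with a fitted value named by the rule, 517 of 546 values did so, 22 newly passed the threshold, 7 no longer passed and 0 reversed. Those 7 were of Mir23a, whose adjusted p was 0.313 by edgeR, 0.13 at the pseudocount of 0.1, 0.0576 under the filter at 5 and up to 0.393 when single libraries were left out. Of the 10 genes, 0 passed with all libraries, and 0 to 1 passed when single libraries were left out. Over all genes, 1 was called higher and 4 lower by limma, 2 and 2 without a trend, 37 and 85 by DESeq2, and 1 to 303 and 0 to 228 when single libraries were left out, the largest counts being those without Mirc11-/- library 3. With the replicate number as a block, 3 genes were called higher and 27 lower, and none of the 10. The deviations of same-numbered libraries correlated by 0.066, -0.063 and 0.097, and those of differently numbered libraries by -0.133 to 0.074. With 3 libraries per genotype, these values cannot decide whether same-numbered pools were prepared together. The main fit used no block. With the length of the longest transcript in place of merged exons, levels per kb were 914 for Irak1, 381.6 for Tnip1, 326.6 for Itch, 248.7 for Tab1, 188.9 for Cyld, 161.2 for Traf6, 139.2 for Optn, 114 for Tnfaip3 and 98.33 for Cblb. This put Itch above Tab1, Cyld above Traf6 and Optn above Tnfaip3. With 8-nucleotide matches alone, 4 of the 10 genes had a match to any MIRC11 miRNA, 0 to miR-27a, 1 to miR-24 and 2 to miR-146a.

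With 3 pools per genotype, an adjusted p over the threshold does not show that levels were alike. For Tnfaip3 the 95% interval spanned log2 fold changes of -1.23 to -0.21, and adjusted p over the alternatives ran between 0.0714 and 0.999. Il10 rested on 16 and 25 reads. Protein levels, mature miRNAs and ubiquitin chains were not analysed here.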
